A study of Homo sapiens with 14 samples.

Results

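Splicing of pre-mRNA depends on a large set of proteins, and their genes are followed here as RNA. The choice was made by name, with earlier results of these data known. It took 51 genes of the core spliceosome and of the heterogeneous nuclear ribonucleoproteins (hnRNPs) from 60683 annotated identifiers. They comprised 3 proteins of the U1 particle, 7 of the Sm ring, 13 of the U2 particle and branch site recognition, 9 of the U4/U6.U5 tri-snRNP, 3 scaffold proteins of the PRPF19 complex, 5 remodelling helicases and 11 hnRNPs. All 51 symbols were found in the count tables, and every gene except U2AF1 had at least 259 counts in each library.

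RNA was sequenced from 2 human cancer cell lines, the lung cancer line A549 and the breast cancer line SUM159, in 7 groups of 2 libraries. A549 cells were left untreated, received 2 µM palbociclib, 0.5 µM indisulam or both drugs over 10 days, or received 0.5 µM PF-06873600 over 7 days. SUM159 cells were left untreated or received 0.5 µM PF-06873600 over 7 days. Palbociclib inhibits the cell cycle kinases CDK4 and CDK6, PF-06873600 inhibits CDK2 as well, and indisulam joins the splicing factor RBM39 to the ubiquitin ligase adaptor DCAF15, after which the RBM39 protein is degraded. The study asked how indisulam and CDK inhibition act on cancer cells together. When the untreated cells were harvested was not given, and the media of the lines differed. The duplicates were described as technical, so the p-values measure only the spread between these libraries, which may be technical.

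The spliceosome assembles anew on each intron. U1 marks the start of the intron, U2 with SF3A, SF3B and U2AF binds the branch site and the intron end, and the tri-snRNP then joins before helicases rearrange the RNA for cutting and joining. The hnRNPs coat nascent RNA and influence which splice sites are used, and several of them also control the splicing of their own transcripts.

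Totals on genes ran from 13060374 to 21149256 counts per library, and reads without a gene feature made up 4.16% to 6.81% of counted, ambiguous and no-feature reads. A549 libraries held 1554 to 6667 CPM (counts on a gene scaled to the library's total on genes) of the line's marker AKR1B10, against 3.57 to 12.5 CPM in SUM159. Of 4 alveolar markers, SFTPC, SFTPB and SFTPA1 did not exceed 0.371 CPM in any A549 library and AGER was at 1.3 to 6.15 CPM. Of 3 hormone receptor breast markers, ESR1 did not exceed 0.662 CPM in SUM159, PGR was at 0 and GATA3 at 5.89 to 6.84 CPM. The untreated libraries of each line differed from each other more than treated pairs did (chi-square per degree of freedom over genes 6.52 in A549 and 6.09 in SUM159, against 1.40 to 3.60). In untreated A549 SNRNP70 was at 218 and 138 CPM and SNRPG at 36.2 and 50.8 CPM, and calls that were lost without 1 of them are named with their values.

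The promoters of 5 members with large or opposite changes are shown because members moved together: PRPF8 and DHX15 rose with indisulam, SF3B6 and SNRPG fell with indisulam and palbociclib together, and HNRNPD fell most in SUM159. Each stretch runs 5′ to 3′ on the gene's strand from 250 bases before to 50 bases after the start annotated by RefSeq (GRCh38.p14). Capitals mark the motifs found, which were searched on both strands. Of the 51 members 47 had an entry, and PRPF3, SNRPD1, SF3B3 and HNRNPA1 had none.
PRPF8 (chr17:1684818-1685117, minus strand): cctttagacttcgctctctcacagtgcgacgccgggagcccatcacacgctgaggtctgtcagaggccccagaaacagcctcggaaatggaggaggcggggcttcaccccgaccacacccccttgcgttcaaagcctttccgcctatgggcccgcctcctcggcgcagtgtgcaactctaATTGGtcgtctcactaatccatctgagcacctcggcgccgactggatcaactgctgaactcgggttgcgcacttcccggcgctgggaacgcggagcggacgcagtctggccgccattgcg
DHX15 (chr4:24584505-24584804, minus strand): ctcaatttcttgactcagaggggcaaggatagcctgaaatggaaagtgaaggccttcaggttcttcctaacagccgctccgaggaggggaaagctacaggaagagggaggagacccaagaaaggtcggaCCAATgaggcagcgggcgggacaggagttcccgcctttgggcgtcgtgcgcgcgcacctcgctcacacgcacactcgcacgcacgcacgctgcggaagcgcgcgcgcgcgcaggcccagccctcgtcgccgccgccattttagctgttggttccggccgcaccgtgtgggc
SF3B6 (chr2:24076277-24076576, minus strand): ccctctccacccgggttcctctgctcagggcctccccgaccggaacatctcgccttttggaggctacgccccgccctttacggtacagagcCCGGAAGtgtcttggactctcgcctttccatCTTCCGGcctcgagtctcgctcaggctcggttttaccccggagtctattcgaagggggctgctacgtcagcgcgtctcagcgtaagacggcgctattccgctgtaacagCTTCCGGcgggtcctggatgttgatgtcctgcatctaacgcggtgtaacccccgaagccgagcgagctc
SNRPG (chr2:70293409-70293708, minus strand): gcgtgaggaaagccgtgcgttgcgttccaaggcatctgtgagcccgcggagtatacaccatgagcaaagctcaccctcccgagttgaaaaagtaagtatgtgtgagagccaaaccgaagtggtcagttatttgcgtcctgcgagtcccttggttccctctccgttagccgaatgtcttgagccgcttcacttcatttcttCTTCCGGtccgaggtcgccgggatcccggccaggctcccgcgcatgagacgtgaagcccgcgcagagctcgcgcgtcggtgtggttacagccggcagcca
HNRNPD (chr4:82373942-82374241, minus strand): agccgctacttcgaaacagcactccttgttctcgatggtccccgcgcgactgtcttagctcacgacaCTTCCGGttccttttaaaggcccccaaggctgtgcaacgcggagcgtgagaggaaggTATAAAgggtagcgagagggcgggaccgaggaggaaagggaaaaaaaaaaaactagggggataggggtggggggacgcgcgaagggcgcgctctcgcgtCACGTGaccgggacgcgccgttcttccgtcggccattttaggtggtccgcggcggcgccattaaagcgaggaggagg
The capitals in PRPF8 and DHX15 are a CCAAT box (CCAAT or ATTGG). In SF3B6 and SNRPG they are an ETS motif (CCGGAAG or CTTCCGG), which the SF3B6 stretch held at 3 places. HNRNPD held an ETS motif, a TATA box (TATAAA or TTTATA) and an E-box (CACGTG). Motif and direction did not go together in all members. SNRNP200, PRPF6 and SF3A2 rose with indisulam alone and held an ETS motif. PRPF19 and PRPF38A fell when indisulam was added to palbociclib and held a CCAAT box. Others were like the printed windows, among them CDC5L (CCAAT box, higher) and SNRPE (ETS motif, lower). The ETS motif was present in 22 of 47 member promoters (46.8%) and in 14.4% of 15325 protein-coding promoters of the same length. In the Sm ring it was present for SNRPB, SNRPD2, SNRPE and SNRPG. RefSeq and GENCODE starts differ for some members, so a window can lie inside the gene. The SNRPG window lies within the GENCODE gene, whose start on the minus strand is at position 70293740. The SNRPE window (chr1:203861597-203861896) runs into the GENCODE gene, which starts at 203861599. In both the ETS match lies inside the GENCODE gene and not upstream of it. The same holds for the ETS matches of SNRPB and SNRPD2, whose GENCODE genes start at 2470853 and 45692569. It also holds for all matches of HNRNPD (start at 82374503) and for the SF3B6 match nearest the start (24076373). Further members are not listed here. The CCAAT box was in 40.4% of member promoters against 36.6% of all, the E-box in 8.51% against 8.89%, the YY1 motif (AAGATGGC) in 8.51% against 3.97% and the TATA box in 6.38% against 9.62%. The E2F motif (TTTCCCGC) was in 2.13% against 2.2%, and the NRF1 motif in 0 of 47 against 1.72%. No motif lies within another, and a match describes the letters of the window only.

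Members differed widely in level. To compare genes, levels are given as CPM per kilobase of exonic length, since long transcripts yield more reads. Exonic length is the union of exons over all annotated transcripts, which can exceed the length of the transcripts expressed. It was 1441 bases for SNRPD2, 6697 for HNRNPA1 and 12613 for HNRNPA2B1, so the order of genes depends on the annotation. In untreated A549 cells SNRPD2, a Sm ring protein, was highest at 171 ± 17.6 CPM per kilobase (SD, n = 2), followed by HNRNPA1 at 136 ± 5.97, HNRNPK at 105 ± 6.18 and HNRNPF at 102 ± 6.8. The levels of HNRNPK and HNRNPF differed by less than their SD. DHX8, PRPF3 and PRPF38A were lowest among the well covered members, at 6.99 ± 0.0456, 6.10 ± 0.779 and 5.71 ± 0.333, and the latter pair also lay within their SD of each other. U2AF1, which encodes the protein that reads the intron end, had 2 to 24 counts per library. A second identifier of U2AF1, which the annotation (GENCODE release 44) tags as an artefactual duplicate, had 0 to 4 counts, and the level of U2AF1 is not interpreted.

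**Figure D1:**
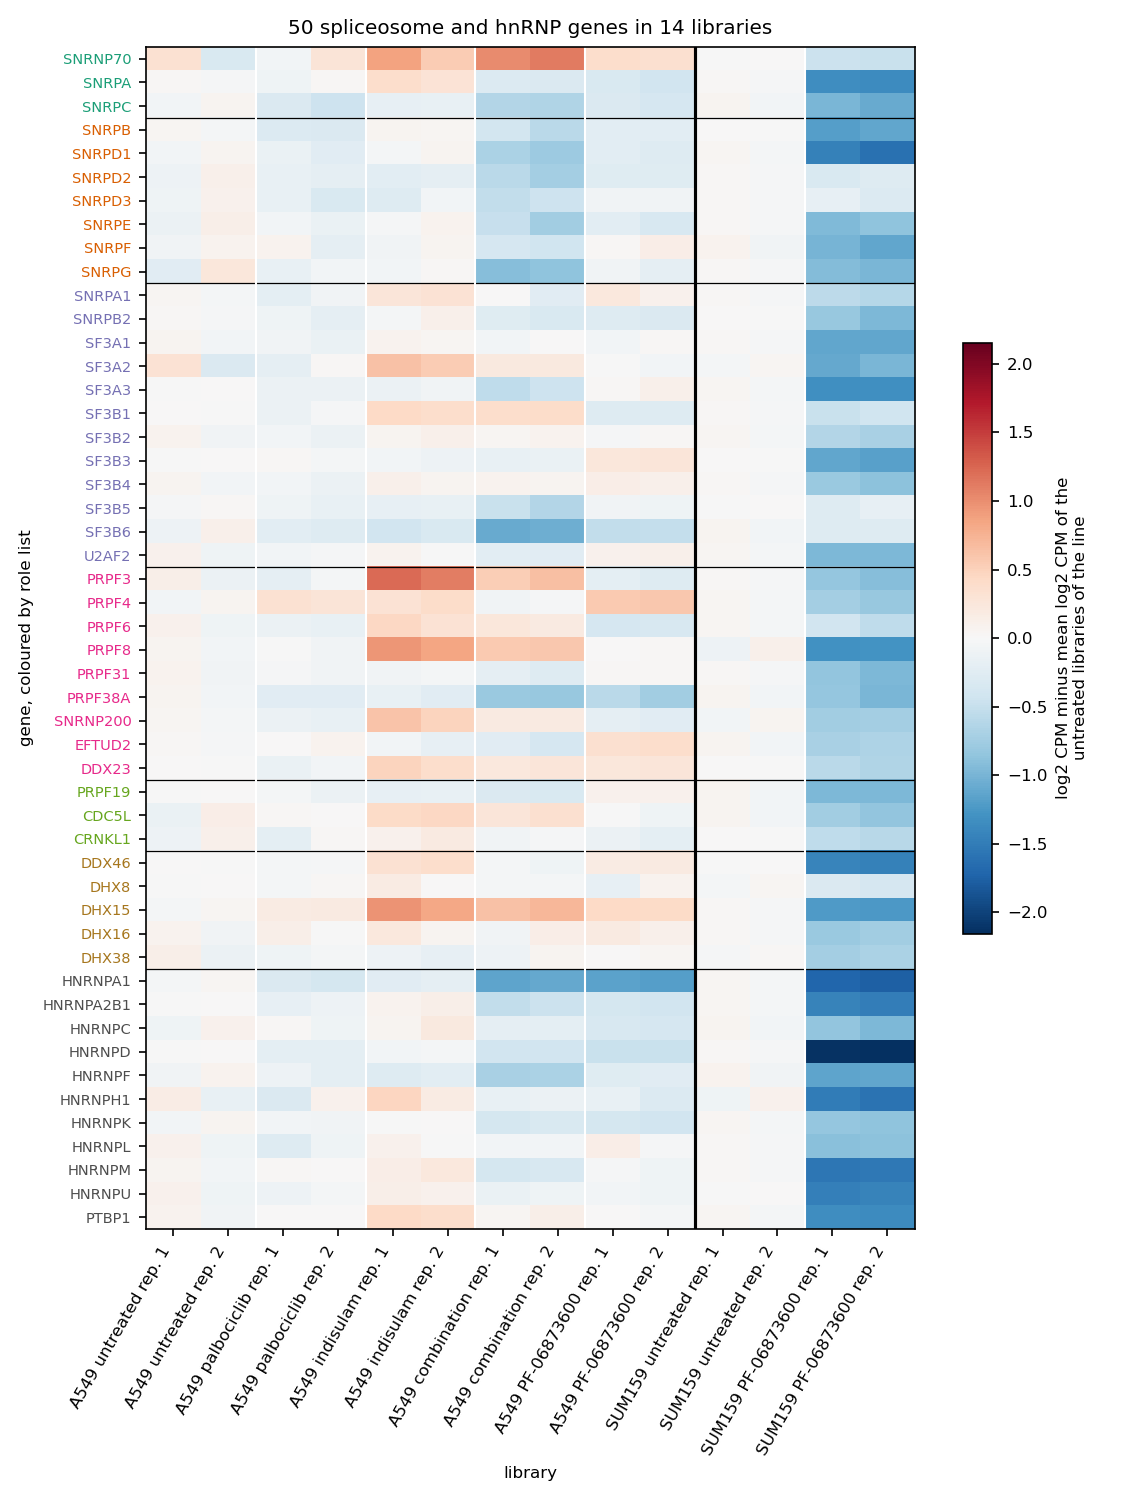
Each row is a gene and each column a library, coloured by log2 CPM minus the mean of the untreated libraries of the same line, with U2AF1 left out. PRPF3, PRPF8 and DHX15 are red in both indisulam libraries, Sm ring genes are blue with indisulam and palbociclib together, and nearly every gene is blue in SUM159 with PF-06873600.

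The first comparison asked how members respond to indisulam alone in A549 cells. Indisulam raised a subset of members, led by tri-snRNP proteins and the helicase DHX15, while most Sm ring and hnRNP genes did not pass the test. In edgeR's quasi-likelihood test with Benjamini-Hochberg adjustment over 15780 genes (threshold 0.05), 17 of the 50 tested members rose and 5 fell. Of all genes tested 28% rose and 17.5% fell, and the median log2 fold change was 0.068 over members and 0.080 over all genes. With TMM scaling 14 members rose and 12 fell, and the share of all calls that were higher went from 61.6% to 50.4%. Sizes of rises and falls are log2 fold changes ± SE throughout. Values are shares of each library, so they give neither RNA per cell nor cell number. A changed share cannot be told apart from a change in the other genes of the library.

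RBM39 RNA was at 149.5 and 135 CPM in untreated and at 244 and 263 CPM in indisulam libraries. The groups did not overlap, and the log2 fold change was 0.83 ± 0.077 (SE, adjusted p = 7.46e-07). These libraries hold no protein values. In separate Western blots of A549 cells, after a longer treatment, the paper reported degradation of RBM39 protein with indisulam or the combination. DCAF15 was at 10.4 and 9.4 CPM untreated and 12.4 and 11.1 CPM with indisulam, a log2 difference of 0.25 ± 0.14 (adjusted p = 0.152).

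The U1 proteins bind the start of the intron. SNRNP70, which holds the first stem-loop of U1 RNA, was at 218 and 138 CPM untreated and 315 and 253 CPM with indisulam. Both treated libraries lay above both untreated ones, with a log2 fold change of 0.67 ± 0.16 (adjusted p = 0.00342). SNRPA, which binds another stem-loop, rose by 0.33 ± 0.067, and SNRPC, which steadies U1 on the splice site, had -0.17 ± 0.067 (adjusted p = 0.0537).

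The Sm proteins form the ring around the spliceosomal snRNAs, and none of 7 rose and 1 fell (0 and 1 at an unadjusted p under 0.05). SNRPD2 was at 228 and 264 CPM untreated and at 209 and 213 CPM with indisulam. The log2 change was -0.22 ± 0.072 (adjusted p = 0.0228). The highest of the ring, SNRPB, had 0.045 ± 0.064 (adjusted p = 0.591).

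Of 12 tested U2 genes 3 rose and 1 fell. SF3A2, which helps to dock U2 at the branch site, was at 58.1 and 37.9 CPM untreated and 72.4 and 68.8 CPM with indisulam, and rose by 0.56 ± 0.14 (adjusted p = 0.00403). The untreated pair was spread widely but lay below the treated pair. SF3B1, the scaffold around the branch site helix, was at 272 and 266 CPM untreated and 363 and 349 CPM with indisulam and rose by 0.40 ± 0.054, and SNRPA1, a U2 protein, rose by 0.28 ± 0.095. SF3B6, which sits near the branch site adenosine, had the lowest value of all members. It was at 72.5 and 84.1 CPM untreated and 58.6 and 62.1 CPM with indisulam, a log2 change of -0.38 ± 0.075 (adjusted p = 0.000991).

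The tri-snRNP brings the catalytic parts, and 6 of its 9 genes rose and none fell (6 and 1 at an unadjusted p under 0.05). PRPF3, a U4/U6 protein (chr1:150321479-150353233, GRCh38, plus strand), was at 36 and 30 CPM untreated and at 76.7 and 71 CPM with indisulam. It stood higher in both treated libraries, with a log2 fold change of 1.16 ± 0.091 (adjusted p = 1.43e-07). PRPF8, the protein at the centre of the catalytic core (chr17:1650629-1684867, minus strand), was at 346 and 321 CPM untreated and 642 and 604 CPM with indisulam, a log2 fold change of 0.90 ± 0.058 (adjusted p = 1.68e-08). SNRNP200, the helicase that unwinds U4 from U6, was at 206 and 195 CPM untreated and 307 and 281 CPM with indisulam and rose by 0.55 ± 0.058. DDX23, PRPF6 and PRPF4 rose by 0.43, 0.38 and 0.36. PRPF38A, which is needed for activation, had the lowest value of the list, -0.20 ± 0.086 (adjusted p = 0.0709).

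DHX15, the helicase that takes apart spent spliceosomes (chr4:24517441-24584554, minus strand), was at 111 and 117 CPM untreated and 222 and 203 CPM with indisulam. Both treated libraries were higher, and the log2 fold change was 0.90 ± 0.062 (adjusted p = 4.03e-08). DDX46, which acts early in U2 binding, rose by 0.36 ± 0.058, and DHX38 had the lowest helicase value, -0.15 ± 0.085 (adjusted p = 0.17). In the PRPF19 complex, which stabilises the active spliceosome, CDC5L rose by 0.43 ± 0.084 and the ubiquitin ligase PRPF19 fell by 0.17.

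Of 11 hnRNP genes 3 rose and 2 fell. PTBP1, a repressor of exon inclusion, was at 285 and 254 CPM untreated and 362 and 349.6 CPM with indisulam and rose by 0.40 ± 0.063 (adjusted p = 0.000129). HNRNPF, which binds G-rich RNA, was at 319 and 351 CPM untreated and 275 and 286 CPM with indisulam, a log2 change of -0.26 ± 0.06. HNRNPH1 and HNRNPM rose by 0.32 and 0.19, and HNRNPA1 fell by 0.22.

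Several of these calls were lost when 1 library was left out, in some cases a library outside the comparison. The calls lost were SNRNP70 without the first indisulam library (adjusted p = 0.0509), SNRPD2 without the second untreated library or either indisulam library (adjusted p = 0.0721 to 0.167), SNRPA1 without the second untreated library or either indisulam library (adjusted p = 0.0615 to 0.121) and PRPF19 without either indisulam library (adjusted p = 0.0661 to 0.0931). Among the hnRNPs they were HNRNPA1 without the first indisulam library (adjusted p = 0.0522), HNRNPM without the second untreated library or the second indisulam library (adjusted p = 0.0888 to 0.17) and HNRNPH1 without the second untreated library, the first indisulam library, either combination library or either PF-06873600 library (adjusted p = 0.0588 to 0.367). In the Sm ring 3 genes fell without the first untreated library, and 1 rose and 0 fell without the second. The number of lower members was 2 without the first indisulam library, 3 without the second, 9 without the first untreated library and 5 with all. Of the leukocyte markers, CD14 was at 5.03 and 4.07 CPM untreated and 11.1 and 12 CPM with indisulam, with PTPRC at no more than 0.133 CPM and CD3E at 0 in these libraries, and their part in the member changes was not tested.

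**Figure D2:**
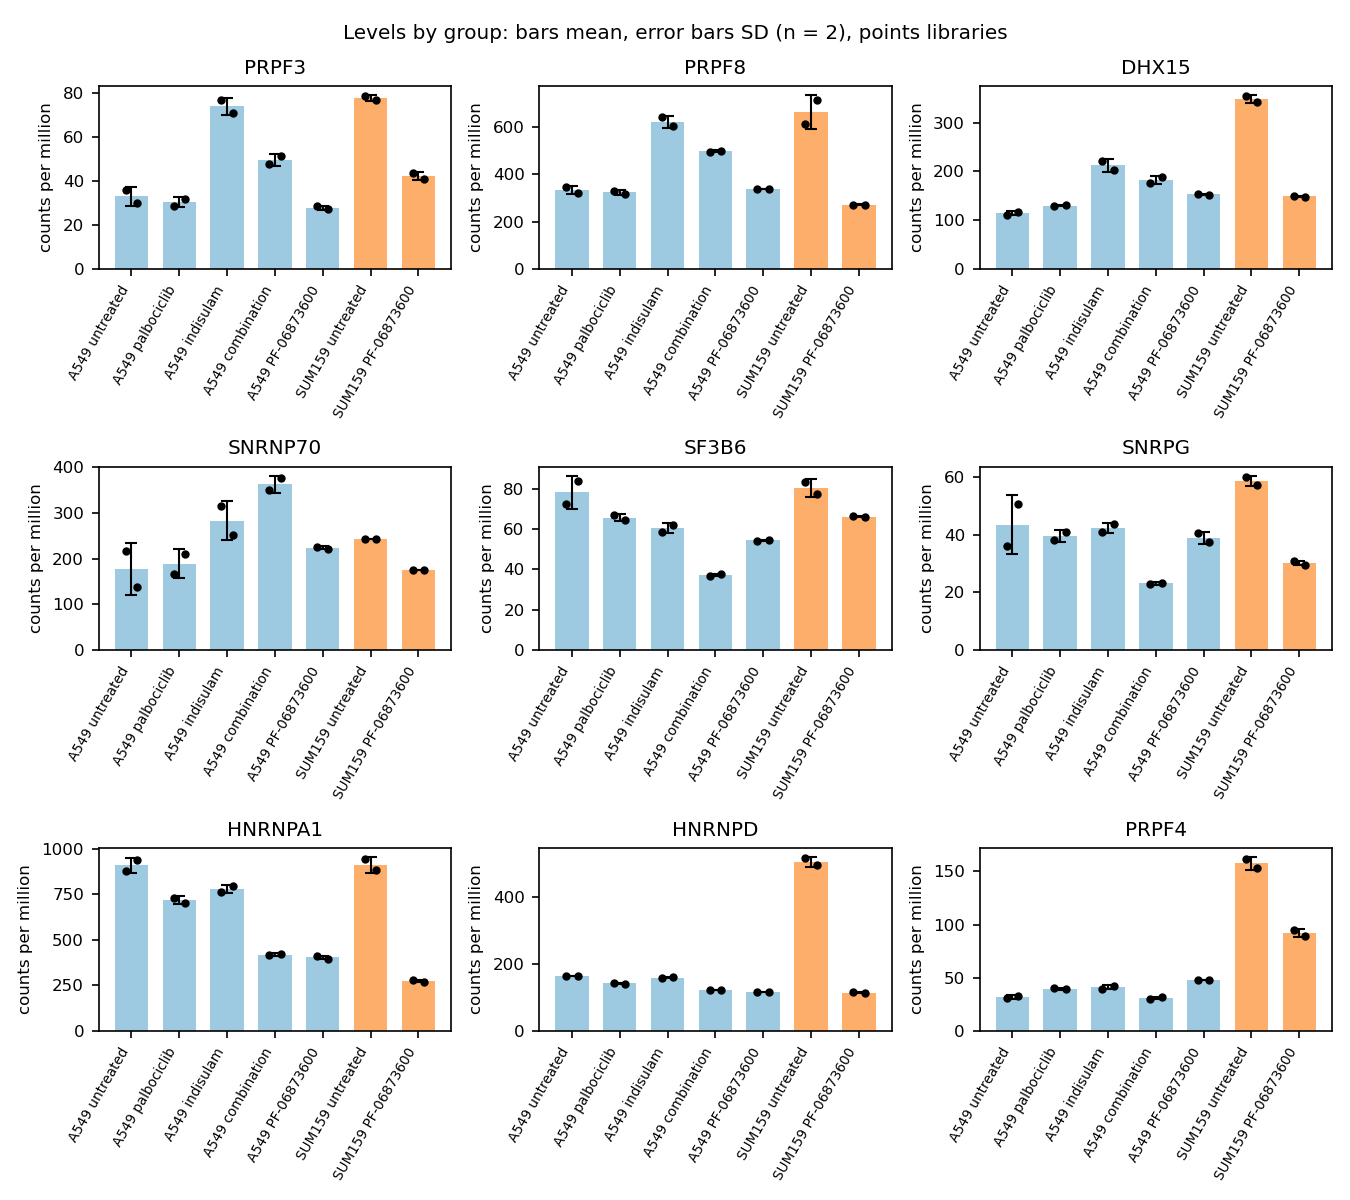
Levels of 9 members in CPM, with bars for group means, error bars for the SD (n = 2) and points for libraries, A549 and SUM159 side by side. PRPF3, PRPF8 and DHX15 are highest among the A549 groups with indisulam alone, SNRNP70 with both drugs, and SF3B6 and SNRPG are lowest with both drugs.

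The next comparison asked the same of cells that also received palbociclib, and it shares no library with the first. Adding indisulam to palbociclib raised 11 of 50 members and lowered 25, against 33.5% and 26.9% of all genes. The median log2 fold change was -0.16 over members and 0.055 over all genes. With TMM scaling 8 members rose and 27 fell, the median over all genes was -0.038, and the share of all calls that were higher went from 55.4% to 47.3%. The whole Sm ring fell, as did SF3B6 and HNRNPA1, while SNRNP70, PRPF3, PRPF8 and DHX15 rose again.

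RBM39 RNA rose by 0.80 ± 0.077, and DCAF15 had 0.14 ± 0.13 (adjusted p = 0.392). SNRNP70 was at 166 and 211 CPM with palbociclib and 350.4 and 377 CPM with both drugs. It rose by 0.95 ± 0.16 (adjusted p = 0.000138) with no overlap between the groups. The other U1 genes, SNRPA and SNRPC, fell, with log2 changes of -0.27 and -0.26.

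In the Sm ring none of 7 rose and 7 fell (0 and 7 at an unadjusted p under 0.05), and 4 fell without the first palbociclib or the second combination library. SNRPG was at 38.2 and 40.9 CPM with palbociclib and 22.8 and 23.4 CPM with both drugs, and the change of -0.78 ± 0.13 (adjusted p = 0.000105) was the lowest in the ring. SNRPD1 and SNRPE fell, with log2 changes of -0.54 and -0.52, and the change was smallest in SNRPB, which fell by 0.18. SNRPG, SNRPC and SNRPE have 20, 18 and 10 annotated pseudogene copies that could share reads, which leaves their levels uncertain.

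Of the U2 genes 3 rose and 5 fell. With DESeq2 or TMM scaling 1 rose, since SF3B2 and SF3B4 lost their call (adjusted p = 0.245 to 0.479). SF3B6 was at 66.9 and 64.4 CPM with palbociclib and at 36.8 and 37.6 CPM with both drugs, a log2 change of -0.82 ± 0.079 (adjusted p = 5.4e-07). Its partner SF3B1 was at 248 and 263 CPM with palbociclib and 348 and 354 CPM with both drugs and rose by 0.46 ± 0.054 (adjusted p = 4.18e-06). The groups did not overlap for either gene, and the directions were opposite.

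The tri-snRNP was split, with 5 genes higher and 4 lower. PRPF3 went from 28.6 and 31.9 to 47.5 and 51.3 CPM, a log2 fold change of 0.71 ± 0.094 (adjusted p = 1.46e-05). PRPF8 went from 332 and 317 to 495 and 501 CPM, a log2 fold change of 0.62 ± 0.057. PRPF38A was lowest and fell by 0.57. DHX15 went from 129 and 130.4 to 177 and 188 CPM and rose by 0.50 ± 0.062, the 1 helicase to pass the test, and DHX8 was the lowest helicase at -0.04 ± 0.082 (adjusted p = 0.695). CDC5L rose by 0.29 ± 0.085 and PRPF19 fell by 0.23.

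No hnRNP gene rose and 6 of 11 fell (0 and 7 at an unadjusted p under 0.05). HNRNPA1, an abundant protein that acts in splicing and export, was at 733 and 702 CPM with palbociclib and 415 and 424 CPM with both drugs, a log2 change of -0.77 ± 0.055 (adjusted p = 1.98e-08). It has 74 annotated pseudogene copies, so its level is uncertain. HNRNPF fell by 0.53, and HNRNPL was the highest at 0.12 ± 0.08 (adjusted p = 0.211).

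The calls lost without 1 library were SNRPA without the second palbociclib library (adjusted p = 0.0613), SNRPC without the first palbociclib library (adjusted p = 0.0669), SNRPB without either palbociclib library or the second combination library (adjusted p = 0.0777 to 0.326) and CDC5L without the second combination library (adjusted p = 0.0788). In the ring they also were SNRPD3 without the first palbociclib library, either combination library or either PF-06873600 library (adjusted p = 0.0582 to 0.278) and SNRPF without the first palbociclib library or the second combination library (adjusted p = 0.0506 to 0.0982). Among the U2 genes they were SF3B2 without either palbociclib library, either indisulam library, either combination library or either PF-06873600 library (adjusted p = 0.0604 to 0.231), SF3B4 without either palbociclib library, either indisulam library, either combination library or either PF-06873600 library (adjusted p = 0.0615 to 0.231), SF3B3 without either palbociclib library, either combination library or either PF-06873600 library (adjusted p = 0.0503 to 0.188) and U2AF2 without the second palbociclib library or either combination library (adjusted p = 0.0669 to 0.0923), and in the tri-snRNP PRPF31 without either palbociclib library or the second combination library (adjusted p = 0.0586 to 0.212). All 10 genes of a cell cycle list fell in the same comparison, with a median log2 change of -1.87, and the part of this in the member changes was not tested.

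Across the 50 members the log2 fold changes with indisulam alone and with indisulam added to palbociclib had Pearson's r = 0.817 and Spearman's rho = 0.766, and all 15780 genes had 0.747 and 0.690. PRPF3, PRPF8, SNRNP200, PRPF6, DDX23, SNRNP70, SF3B1, DHX15 and CDC5L rose in both. They were 9 of the 50 members, against 20.4% of all genes that rose in both. Members that rose numbered 17 and 11 in the 2 comparisons. Over all genes 4420 and 5279 rose, and 3227 rose in both. SF3B6, PRPF19, HNRNPF, HNRNPA1 and SNRPD2 fell in both, 5 of the 50 members against 12.8% of all genes. Members that fell numbered 5 and 25. Over all genes 2757 and 4250 fell, and 2019 fell in both.

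PRPF4, HNRNPM and SNRPA passed the test in opposite directions, higher with indisulam alone and lower when it was added to palbociclib, as did 2.34% of all genes in either order. PRPF4, a U4/U6 protein, was at 30.9 and 33.3 CPM untreated and 39.9 and 42.4 CPM with indisulam, a log2 change of 0.36 ± 0.076. It was at 40.2 and 39.1 CPM with palbociclib and 30.3 and 31.6 CPM with both drugs, a change of -0.35 ± 0.076. SNRPA was at 83.3 and 79.8 CPM untreated and 105 and 99.5 CPM with indisulam. With palbociclib it was at 76.1 and 83.4 CPM and with both drugs at 66.7 and 65.8 CPM, so the combination lay lowest. The call of SNRPA in the second comparison was lost without the second palbociclib library, and HNRNPM had a change of -0.38 there.

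**Figure D3:**
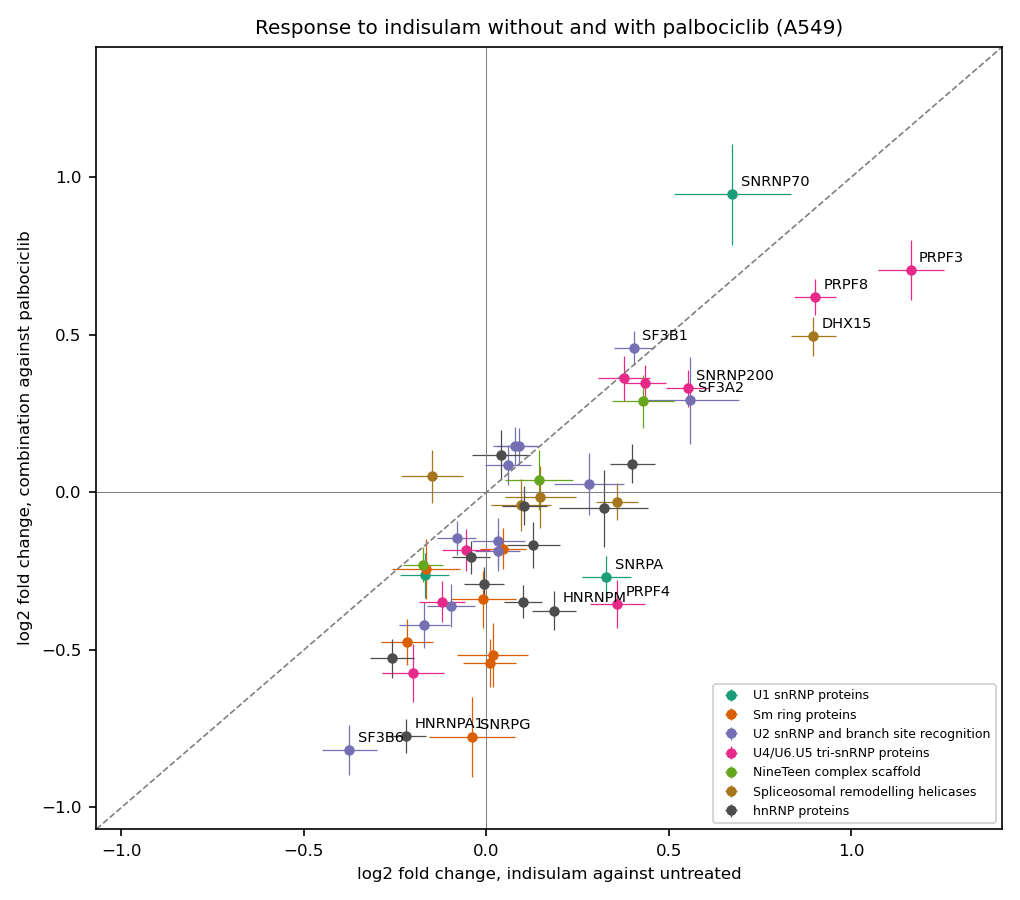
Log2 fold change of each of 50 members with indisulam alone (horizontal) and with indisulam added to palbociclib (vertical), coloured by role, with bars for the SE and a dashed line of equality. Of the 50 members 43 lie below the line, PRPF3, PRPF8 and DHX15 are high on both axes, and the Sm ring lies below 0 on the vertical axis.

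The interaction term tests whether the response to indisulam differed with palbociclib. It was lower with palbociclib in 18 of 50 members and higher in none, against 14.5% and 10.7% of all genes. At an unadjusted p under 0.05 the counts were 28 lower and 0 higher, and DESeq2 gave 14 and 0. The 18 were 7 hnRNP, 4 tri-snRNP, 3 Sm ring, 2 helicase, 1 U1 and 1 U2 gene, and no PRPF19 complex gene was among them.

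SNRPG had the lowest term at -0.74 ± 0.17 (adjusted p = 0.00627), and SNRPD1 and SNRPE had -0.55 and -0.53. PRPF4 had -0.71 ± 0.11 (adjusted p = 0.000202), SNRPA -0.60 ± 0.096, HNRNPM -0.56 ± 0.086 and HNRNPA1 -0.55 ± 0.078. Some members that rose with indisulam alone had lower terms, among them PRPF3 at -0.46 ± 0.13, PRPF8 at -0.28 ± 0.081 and DHX15 at -0.40 ± 0.087. Others that rose, SNRNP70, PRPF6 and CDC5L among them, had terms that did not pass the test. The term subtracts the response to indisulam alone, so a member chosen for a high response tends to a lower term by construction. SF3B6 had -0.44 ± 0.11 and CDC5L, lowest of the PRPF19 complex genes, -0.14 ± 0.12 (adjusted p = 0.433).

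The highest terms did not pass the test. SNRNP70 had 0.27 ± 0.23 (adjusted p = 0.426), DHX38 0.20 ± 0.12, HNRNPL 0.078 ± 0.11, SF3B4 0.071 ± 0.085, PRPF6 -0.015 ± 0.10, PRPF19 -0.056 ± 0.077 and SNRPD3 -0.079 ± 0.13. Without 1 library the following lost their call: PRPF3 without the second palbociclib library, the first indisulam library or the first combination library (adjusted p = 0.0749 to 0.102), PRPF8 without the first palbociclib library, the first indisulam library or either combination library (adjusted p = 0.0587 to 0.0919) and SNRPE without the second indisulam library or the second combination library (adjusted p = 0.0521 to 0.0817). Further terms lost were PRPF38A without the second untreated library, either palbociclib library, either indisulam library, either combination library or either PF-06873600 library (adjusted p = 0.0561 to 0.131), HNRNPF without the first palbociclib library, either indisulam library, either combination library or either PF-06873600 library (adjusted p = 0.053 to 0.137) and HNRNPC without the first untreated library, the first palbociclib library, the second indisulam library, either combination library or either PF-06873600 library (adjusted p = 0.0777 to 0.201). They also included HNRNPK without the first palbociclib library, the second indisulam library or the first combination library (adjusted p = 0.0504 to 0.0733) and PTBP1 without either palbociclib library, the first indisulam library or the first combination library (adjusted p = 0.0516 to 0.0976). Without the first combination library 3 hnRNP genes and 1 tri-snRNP gene had a lower term, and without the first palbociclib or the second indisulam library 4 hnRNP genes. Without the second untreated library 2 members had a higher term, and 5 Sm ring genes and 1 PRPF19 complex gene had a lower one.

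Both drugs against untreated gave 9 higher and 26 lower members, with 35.1% and 30% of all genes in those directions. With TMM scaling these were 7 and 28, the median over all genes was -0.033, and the share of all calls that were higher went from 53.9% to 47.6%. RBM39 RNA rose by 0.68 ± 0.077 and DCAF15 by 0.36 ± 0.13 (adjusted p = 0.0296). SNRNP70 rose most, from 218 and 138 to 350.4 and 377 CPM, a log2 fold change of 1.03 ± 0.16 (adjusted p = 5.33e-05), and SNRPC fell by 0.64. Both treated values lay above both untreated ones.

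All 7 Sm ring genes fell, from SNRPF (-0.40 ± 0.091) to SNRPG (-0.91 ± 0.13). SNRPD1, SNRPD2 and SNRPE fell, with log2 changes of -0.73, -0.66 and -0.63. SF3B6 was at 72.5 and 84.1 CPM untreated and 36.8 and 37.6 CPM with both drugs, a log2 change of -1.07 ± 0.078 (adjusted p = 1.93e-08). SF3B5, another small SF3B protein, fell by 0.55, and SF3B1 rose by 0.38 ± 0.054.

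PRPF3, PRPF8 and DHX15 rose by 0.58 ± 0.093, 0.58 ± 0.057 and 0.68 ± 0.062, and PRPF38A fell by 0.81. DDX46 was the lowest helicase at -0.063 ± 0.058 (adjusted p = 0.355). CDC5L rose by 0.30 ± 0.085 and PRPF19 fell by 0.31. Of the hnRNPs none rose and 7 fell (0 and 7 at an unadjusted p under 0.05). HNRNPA1 went from 881 and 937 to 415 and 424 CPM, a change of -1.12 ± 0.056 (adjusted p = 2.74e-10), HNRNPF fell by 0.69, and PTBP1 had 0.09 ± 0.063 (adjusted p = 0.219). Calls that did not hold without 1 library were CDC5L without the first untreated library or the second combination library (adjusted p = 0.0571 to 0.0618) and DCAF15 without the second untreated library or the first combination library (adjusted p = 0.122 to 0.182). They also were HNRNPC without the second untreated library or either combination library (adjusted p = 0.0729 to 0.169), SF3B3 without either combination library (adjusted p = 0.0622 to 0.0958), PRPF6 without the second untreated library or the first combination library (adjusted p = 0.101 to 0.123), SNRNP200 without the second combination library (adjusted p = 0.0512) and PRPF31 without the second combination library (adjusted p = 0.0738). The summed level of 6 mesenchymal markers, listed for SUM159, was 2446 to 2454 CPM in untreated A549 libraries and 5209 to 5262 CPM with both drugs, and its part was not tested.

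Palbociclib alone changed few members. It raised 1 of 50 and lowered 5, and 8.3% of all genes rose and 7.4% fell. RBM39 and DCAF15 had -0.12 ± 0.078 and 0.22 ± 0.14 (adjusted p = 0.351 and 0.308). PRPF4 went from 30.9 and 33.3 to 40.2 and 39.1 CPM, a log2 fold change of 0.30 ± 0.076 (adjusted p = 0.0139). SNRPC fell by 0.38, SNRPB fell by 0.30, SF3B6 fell by 0.26 and HNRNPD fell by 0.21.

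HNRNPA1 was at 881 and 937 CPM untreated and 733 and 702 CPM with palbociclib and fell by 0.34 (adjusted p = 0.000641). The groups did not overlap. No PRPF19 complex or helicase gene passed the test, and DHX15 had the highest helicase value at 0.18 ± 0.063 (adjusted p = 0.067). At an unadjusted p under 0.05, 1 helicase gene and 0 PRPF19 complex genes were higher. PRPF38A had -0.24 ± 0.086 and SNRNP70 0.087 ± 0.16, neither past the threshold. Calls lost when 1 library was left out were PRPF4 and HNRNPD without either palbociclib library. The call of SF3B6 was lost without the second untreated library (log2 change -0.14), either palbociclib library, either combination library or either PF-06873600 library. Without either palbociclib library 3 members fell and 0 rose, and without either untreated library 11 fell and 2 rose.

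Adding palbociclib to indisulam lowered 36 of 50 members and raised none, with 23.9% and 22% of all genes in those directions. At an unadjusted p under 0.05 the counts were 38 and 1, and DESeq2 gave 31 and 0. RBM39 had -0.15 ± 0.075 (adjusted p = 0.109) and DCAF15 0.11 ± 0.13 (adjusted p = 0.522). The lowered members came from every role list except the PRPF19 complex.

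HNRNPA1 was lowest, going from 765 and 796 CPM with indisulam to 415 and 424 CPM with both drugs, a log2 change of -0.90 ± 0.055 (adjusted p = 9.77e-09). SNRPG went from 41.1 and 43.7 to 22.8 and 23.4 CPM, a change of -0.87 ± 0.13. SNRPD1, SF3B6, SNRPE, SNRPA and PRPF38A fell, with log2 changes of -0.74, -0.70, -0.64, -0.63 and -0.61. PRPF3, the gene raised most by indisulam alone, fell by 0.58 from 76.7 and 71 to 47.5 and 51.3 CPM. HNRNPA2B1, HNRNPM and SNRPB fell, with log2 changes of -0.59, -0.55 and -0.53, and DDX46 fell by 0.42. SNRNP70 stood against this with 0.36 ± 0.16 (adjusted p = 0.078), and CRNKL1 was the lowest PRPF19 complex gene at -0.19 ± 0.094 (adjusted p = 0.105). Without either untreated library 2 PRPF19 complex genes fell. Calls that did not hold without 1 library were SF3A2 without either indisulam library, either combination library or either PF-06873600 library (adjusted p = 0.0515 to 0.143), PRPF31 without either indisulam library, either combination library or either PF-06873600 library (adjusted p = 0.0535 to 0.247), EFTUD2 without the first indisulam library, the second combination library or either PF-06873600 library (adjusted p = 0.0525 to 0.258) and DDX23 without the first indisulam library or either combination library (adjusted p = 0.0579 to 0.136). Others were DHX15 without the first indisulam library or the first combination library (adjusted p = 0.1 to 0.119), HNRNPU without the first indisulam library or the first combination library (adjusted p = 0.0617 to 0.0761), HNRNPH1 without the first indisulam library (adjusted p = 0.0888), SNRPD3 without the second indisulam library or the first combination library (adjusted p = 0.104 to 0.167) and SNRPA1 without the second combination library (adjusted p = 0.0735). All 10 genes of the cell cycle list fell here too, with a median of -1.68, and their part was not tested.

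Members with more exons had higher fold changes in these comparisons. Across the 50 members the log2 fold change with indisulam alone had r = 0.434 and rho = 0.429 with the log2 of the highest exon number among annotated transcripts, and with both drugs r = 0.560 and rho = 0.611. Over 13272 protein-coding genes tested, r was 0.011 and -0.0055, and rho 0.071 and 0.042. Comparisons without indisulam had it too over the members, at rho = 0.492 with palbociclib alone and 0.358 with PF-06873600 in A549. With PF-06873600 in SUM159 rho was 0.010. The points share their libraries, and exon number goes with transcript length, so these values are descriptions. At 4000 or more exonic bases, a limit chosen with the values known, 13 of 31 members rose with indisulam alone and 1 fell, against 33.5% and 16.7% of protein-coding genes of that length. Below it 4 of 19 rose and 4 fell, against 23.5% and 21.1%. With both drugs 8 of the 31 longer members rose and 12 fell, against 40.0% and 29.2%, and 1 of the 19 shorter members rose and 14 fell, against 31.8% and 35.9%.

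**Figure D4:**
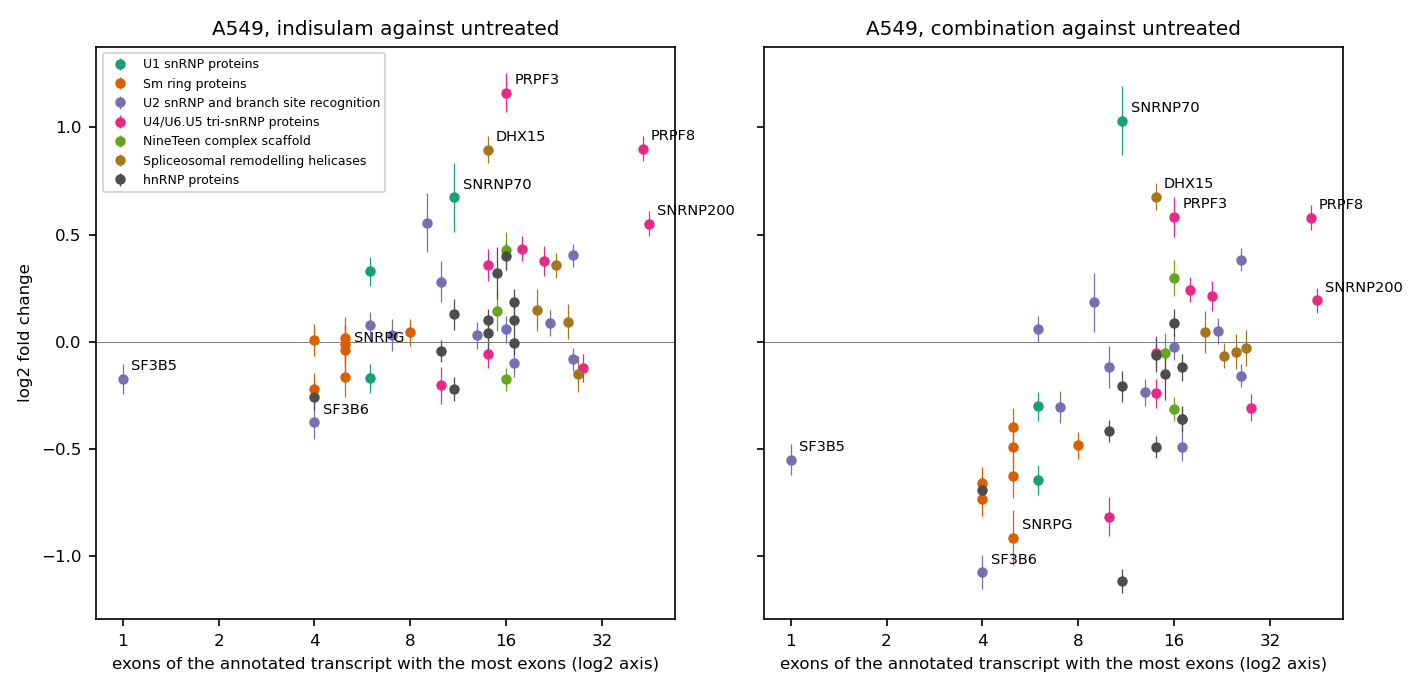
Log2 fold change against untreated (vertical, bars SE) of 50 members by the highest exon number of their annotated transcripts (horizontal, log2 axis), for indisulam (left) and both drugs (right), coloured by role. PRPF8 and SNRNP200, with 43 and 45 exons, lie above 0 in both panels, and the Sm ring genes, with 4 to 8 exons, lie below 0 with both drugs.

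As a set, members took 0.914% and 0.927% of counts in untreated A549 libraries, 1.01% and 1.03% with indisulam and 0.803% and 0.814% with both drugs. The mean log2(CPM + 1) over members was 6.93 ± 0.020 (SD, n = 2) untreated, 7.07 ± 0.0094 with indisulam, 6.84 ± 0.0054 with palbociclib, 6.75 ± 0.00070 with both and 6.83 ± 0.015 with PF-06873600. Over these 5 group means the genes most like it were SLC25A40 (Pearson's r = 0.995) and GTF2A1 (r = 0.989), beside 1 identifier without a symbol (r = 0.997).

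PF-06873600 was given to both lines, which allows the response to be compared between them. In A549 it raised 6 of 50 members and lowered 19, with 28.5% and 27.8% of all genes in those directions. PRPF4, DHX15 and EFTUD2 rose while HNRNPA1, PRPF38A and SF3B6 fell. RBM39 RNA fell by 0.54 and DCAF15 had 0.27 ± 0.14 (adjusted p = 0.101).

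PRPF4 was at 30.9 and 33.3 CPM untreated and 47.6 and 48.1 CPM with the drug and rose by 0.58 ± 0.075 (adjusted p = 1.3e-05). DHX15 was at 111 and 117 CPM untreated and 154 and 152 CPM with the drug and rose by 0.42 ± 0.062. EFTUD2, the U5 GTPase, SF3B3, DDX23 and DDX46 rose by 0.36, 0.25, 0.25 and 0.18. In each the 4 libraries were in order, treated above untreated. HNRNPA1 went from 881 and 937 to 410.0 and 397 CPM, a log2 change of -1.17 ± 0.056 (adjusted p = 3.51e-10).

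PRPF38A fell by 0.66, SF3B6 fell by 0.52, HNRNPD fell by 0.49 and SNRPA fell by 0.37. In the Sm ring 0 of 7 rose and 4 fell (0 and 4 at an unadjusted p under 0.05), SNRPE fell by 0.30, and SNRPF was highest at 0.083 ± 0.089 (adjusted p = 0.445). SNRNP70 had 0.33 ± 0.16, HNRNPL 0.057 ± 0.079, PRPF19 0.099 ± 0.054, CRNKL1 -0.17 ± 0.095 and DHX8 -0.037 ± 0.082, and none of the 5 passed the threshold. Leaving out 1 library ended the calls of DDX46 without either PF-06873600 library (adjusted p = 0.0666 to 0.102) and SNRPE without the second untreated library or the second PF-06873600 library (adjusted p = 0.149 to 0.171). It also ended those of PRPF3 without the first untreated library, either indisulam library, either combination library or either PF-06873600 library (adjusted p = 0.054 to 0.371), SNRNP200 without the second PF-06873600 library (adjusted p = 0.0611), SNRPD1 without the second PF-06873600 library (adjusted p = 0.0798) and SNRPB without the second PF-06873600 library (adjusted p = 0.0528). In the Sm ring 1 gene fell without the second PF-06873600 library, and 2 fell with DESeq2. Without the first untreated library 10 members rose.

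In SUM159 50 of 51 members fell with PF-06873600 and none rose, against 35.6% and 38.1% of all genes. At an unadjusted p under 0.05 the counts were also 50 and 0, and DESeq2 gave 49 and 0. The median log2 change was -0.91 over members and 0.020 over all genes. Members took 1.57% and 1.53% of counts in untreated libraries and 0.731% and 0.720% in treated ones. U2AF1, the exception, had 7 to 24 counts per SUM159 library. RBM39 fell by 0.90 and DCAF15 fell by 0.72.

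The hnRNPs fell most, with a list median of -1.46. HNRNPD, which binds AU-rich RNA, was at 518 and 496 CPM untreated and 116 and 114 CPM with the drug, a log2 change of -2.14 ± 0.059 (adjusted p = 2.76e-13). HNRNPA1 was at 945 and 882 CPM untreated and 278 and 270.3 CPM with the drug, a change of -1.74 ± 0.064. HNRNPH1, HNRNPM, HNRNPA2B1 and HNRNPU fell, with log2 changes of -1.55, -1.55, -1.47 and -1.46. PTBP1, HNRNPF, HNRNPC and HNRNPL fell, with log2 changes of -1.35, -1.13, -0.90 and -0.89, and HNRNPK changed least of the list, at -0.85.

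Among U1 genes SNRPA fell most, at -1.35, and SNRNP70 least, at -0.47. In the Sm ring SNRPD1 was at 146 and 136 CPM untreated and 51.4 and 46.2 CPM with the drug and fell by 1.53, while SNRPD3 fell by 0.24. In U2 SF3A3 fell most, at -1.32, and SF3B5 and SF3B6 fell, with log2 changes of -0.22 and -0.28, against -1.15 for SF3B3. PRPF8 was at 613 and 716 CPM untreated and 269 and 272 CPM with the drug and led the tri-snRNP with a log2 change of -1.30, and PRPF6 fell least, at -0.49.

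PRPF19 fell by 0.97 and CRNKL1 fell by 0.58 in the PRPF19 complex list. Of the helicases DDX46 was at 183 and 186 CPM untreated and 68.5 and 67.6 CPM with the drug, and fell by 1.44 (adjusted p = 6.29e-12). DHX15 fell by 1.23 and DHX8 least, at -0.34. Single libraries decided the calls of SF3B5 without the first PF-06873600 library (adjusted p = 0.0898) and SNRPD3 without the second PF-06873600 library (adjusted p = 0.15). The leukocyte marker PTPRC was at 9.35 and 9.9 CPM untreated and 20.3 and 17.9 CPM treated, with CD14 at 0.784 to 3.88 CPM and CD3E at 0 in these libraries. The summed level of 3 endothelial markers, mostly PECAM1, was 11 to 11.6 and 26.9 to 29 CPM. All 10 cell cycle genes fell, with a median of -1.24, and the part of these genes in the member changes was not tested.

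The difference between the lines was tested in a model of all 14 libraries. The response was lower in SUM159 than in A549 for 43 of 51 members and higher for 1, with 27.2% and 25.8% of all genes in those directions. HNRNPD and DHX15 had the lowest differences, -1.65 ± 0.072 and -1.65 ± 0.082 (adjusted p = 1e-12 and 5.45e-12). DHX15 rose in A549 and went from 355 and 342 to 149 and 148 CPM in SUM159. DDX46, HNRNPM, SF3B3, PRPF4 and SNRPD1 were also low, with -1.62, -1.48, -1.40, -1.35 and -1.28.

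SNRPA was the lowest U1 gene at -0.97 and SNRPC the highest at -0.70, and PRPF19 and CRNKL1 bounded the PRPF19 complex list at -1.07 and -0.41. HNRNPK was the highest hnRNP at -0.45 ± 0.079 and DHX8 the highest helicase at -0.30 ± 0.10. SNRPD2 and PRPF6 had -0.039 ± 0.096 and -0.13 ± 0.10 (adjusted p = 0.78 and 0.318). SF3B6 was the 1 higher member at 0.24 ± 0.10 (adjusted p = 0.0492). Leaving out 1 library ended the calls of SF3B6 without the second untreated A549 library, either palbociclib library, either indisulam library, either combination library, either A549 PF-06873600 library, the second untreated SUM159 library or either SUM159 PF-06873600 library (adjusted p = 0.0554 to 0.246) and DHX8 without the second A549 PF-06873600 library, the second untreated SUM159 library or the second SUM159 PF-06873600 library (adjusted p = 0.0673 to 0.218).

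The responses of the lines rest on different libraries. Over the 50 members tested in both they had r = 0.226 and rho = 0.125, and over 13607 genes 0.221 and 0.131. In both lines 19 members fell (11.8% of all genes did) and 0 rose (13.4%). DHX15, DDX46, PRPF4, DDX23, SF3B3 and EFTUD2 rose in A549 and fell in SUM159, and 19.8% of all genes were opposite in either order. EFTUD2 was at 128 and 122 CPM untreated and 158 and 162 CPM treated in A549, and at 406 and 376 CPM untreated and 240.1 and 248 CPM treated in SUM159.

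**Figure D5:**
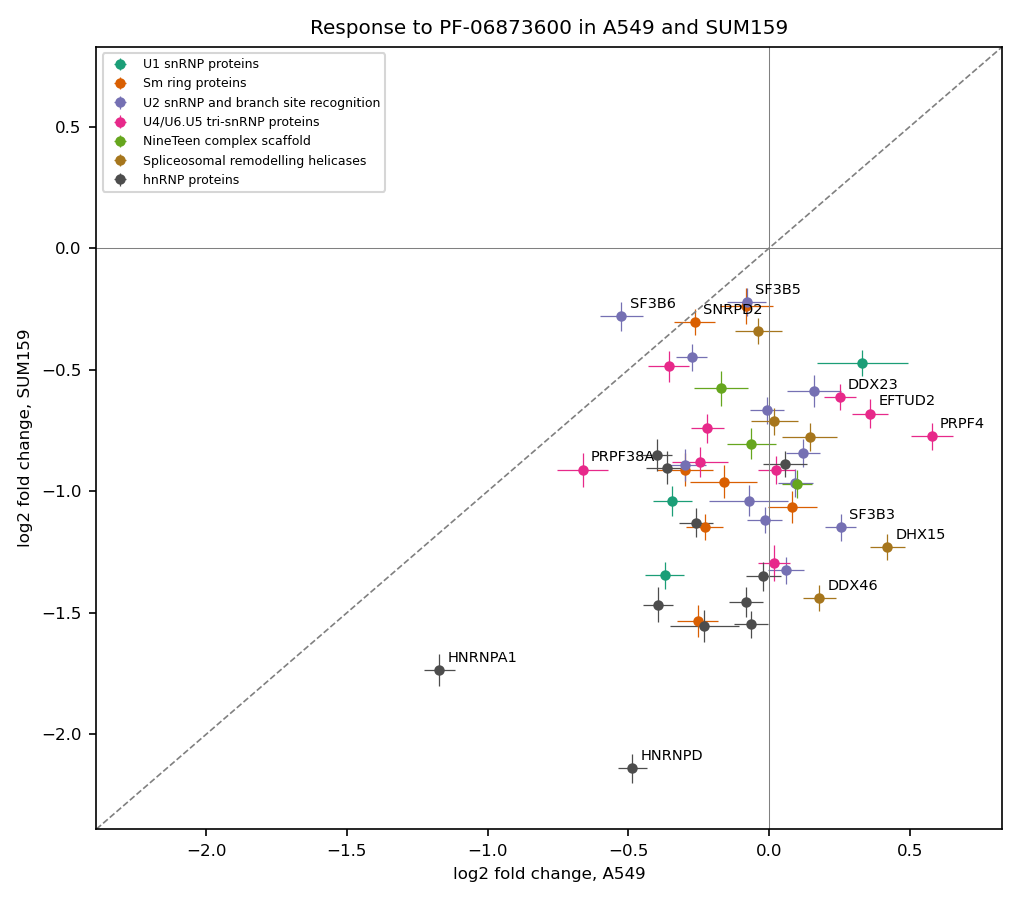
Log2 fold change of 50 members with PF-06873600 against untreated in A549 (horizontal) and SUM159 (vertical), coloured by role, with bars for the SE and a dashed line of equality. Every point lies below 0 on the vertical axis and 49 of 50 lie below the line, with PRPF4, DHX15 and EFTUD2 to the right of 0 and HNRNPA1 low on both axes.

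Without treatment SUM159 cells had more of most members than A549 cells. Of 51 members 44 were higher and 2 lower, against 41.9% and 36.8% of all genes, and the median log2 difference was 0.72 over members and 0.078 over all genes. Line, medium and all else that differs between the cultures cannot be told apart. RBM39 differed by 0.61 ± 0.07 and DCAF15 by 1.74 ± 0.11.

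PRPF4 differed most, at 162 and 153 CPM in SUM159 against 30.9 and 33.3 CPM in A549, a log2 difference of 2.30 ± 0.067 (adjusted p = 1.52e-16). HNRNPD was at 518 and 496 CPM in SUM159 against 164 and 165 CPM in A549, a difference of 1.62 ± 0.051. EFTUD2, DHX15, DHX16 and HNRNPM differed by 1.65, 1.61, 1.58 and 1.56. SF3A3, SF3B3, PRPF3, PRPF38A, SNRPD1 and SNRNP200 differed by 1.39, 1.24, 1.24, 1.20, 1.19 and 1.17.

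The Sm ring was the most mixed list, with SNRPD2 and SNRPD3 lower in SUM159 at -0.58 ± 0.068 and -0.43 ± 0.089. SNRPA and SNRNP70 bounded the U1 list at 0.74 and 0.45, CDC5L and CRNKL1 the PRPF19 complex list at 1.06 and 0.08 (adjusted p = 0.403 for CRNKL1), and DHX8 was the lowest helicase at 0.72. SF3B6 had 0.038 ± 0.07, PRPF6 0.058 ± 0.072 and HNRNPA1 0.0066 ± 0.056, none past the threshold. HNRNPA1 was at 945 and 882 CPM in SUM159 and 881 and 937 CPM in A549, so the groups overlapped. The 44 include U2AF1, on 11 and 24 counts against 7 and 3. Without 1 library the following lost their call: U2AF1 without the second untreated A549 library or the second untreated SUM159 library (adjusted p = 0.101 to 0.206), SNRNP70 without the second untreated A549 library (adjusted p = 0.18) and SNRPE without the first untreated A549 library or the first untreated SUM159 library (adjusted p = 0.132 to 0.343).

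Other splicing genes, 123 in 9 lists outside the members, were counted in the same way. With indisulam alone 25 rose and 21 fell, against 28% and 17.5% of all genes. With indisulam added to palbociclib 16 rose and 54 fell, against 33.5% and 26.9%. Both drugs against untreated raised 16 and lowered 67, against 35.1% and 30%. PF-06873600 raised 16 and lowered 58 in A549, against 28.5% and 27.8%, and in SUM159 it raised 4 and lowered 108 of 122 tested, against 38.1% and 35.6%.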

How the data were processed

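RNA from 14 libraries of A549 and SUM159 cells (stranded mRNA kit, single reads of 65 bases) was analysed. The authors deposited 1 table of raw counts per gene for each library. The submitters' processing notes name HISAT2 2.2.1, HTSeq and GRCh38, and the strand setting and annotation release are not given in the sources used here. Overlapping genes on opposite strands therefore cannot be separated with certainty. Symbols came from GENCODE release 44 (60370 of 60683 identifiers), and the 9 summary lines were kept out of totals.

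Counts were tested with edgeR 4.0.16 (limma 3.58.1, R 4.3.3) by its quasi-likelihood test, with library size as the total on genes, filterByExpr by group and Benjamini-Hochberg adjustment over all genes tested at 0.05. The 10 A549 libraries, the 4 SUM159 libraries, and all 14 for comparisons of lines were each fitted in 1 model. The SE is the log2 fold change divided by the root of F. In simulated A549 counts (indisulam against untreated, 15256 genes) 58.7% of 1.41-fold and 85.9% of 2-fold changes were recovered and 5.42% of calls were false. In simulated SUM159 counts these were 56.9%, 79.7% and 6.79%. Only 200 genes were changed, and every gene had the same spread. The real comparisons called far more genes and the untreated libraries were spread widely, so these rates need not hold there. Counting error is small at these depths, and 2 libraries a group limit precision: an exact permutation test of 2 against 2 cannot go below p = 0.333. Promoters were read from RefSeq with Python 3.11.15.

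Members and gene lists were chosen with earlier results of these data known. Named in each comparison were the highest and lowest member of each role list, members past the threshold with a log2 change of at least 0.5 (up to 30), members called in opposite directions in comparisons without a shared library, and RBM39 and DCAF15. Of each other list at most the highest and lowest called gene was named, and the 3 genes most alike in pattern. Other genes named in a list of lost calls were named after their values were seen. Alternatives were DESeq2 1.42.0, TMM scaling, no filter, a filter at a mean of 50 counts, models of the compared groups alone, a replicate block and leaving out each library.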

Additional observations from a re-analysis of the deposited data

Results flagged for a closer look

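Differences between groups were tested for the response to PF-06873600 and for the response to indisulam. The response to PF-06873600 was lower in SUM159 than in A549 for 43 members and higher for 1, SF3B6. Of all genes 27.2% and 25.8% went in those directions. The response to indisulam was lower with palbociclib than without it for 18 members, against 14.5% of all genes. Reads without a gene feature, which entered no comparison, made up 6.81% (95% exact binomial interval 6.79% to 6.82%) in the first indisulam library and 6.73% (6.72% to 6.75%) and 6.54% (6.53% to 6.55%) in the combination libraries, above the 5.89% and 5.09% of the untreated A549 libraries. The second indisulam library, at 5.79%, lay between the untreated ones. The palbociclib libraries, without indisulam, were at 4.41% and 5.95%, and the second of these also lay above both untreated ones. The intervals cover counting error only. No group had enough libraries for a test of single libraries that stand apart.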

How the results depend on the processing

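Of 329 calls, 318 of members and 11 of RBM39 and DCAF15, recomputed under the alternatives that apply to each (5272 values), 5013 kept their direction and their side of the threshold, 259 kept the direction and lost the threshold, and 0 reversed. DESeq2 lost 31 calls, testing only the compared groups 16, TMM scaling 13, no filter 9, the replicate block 4 and a mean of at least 50 counts 1. For indisulam alone the members that fell numbered 12 with TMM and 2 with only the compared groups, and the median of -0.0031 (DESeq2) or -0.011 (TMM) was below 0. For palbociclib alone 0 rose with DESeq2 or with only the compared groups, where 2 fell. For palbociclib added to indisulam 1 rose without the filter or with only the compared groups, and 1 interaction term was higher without the filter. No member had a higher response in SUM159 with DESeq2, without the filter or with the replicate block. Leaving out 1 library, the counts ranged from 2 to 9 lower for indisulam alone, 0 to 2 higher and 3 to 11 lower for palbociclib alone, 0 to 1 higher for palbociclib added to indisulam, 0 to 2 higher and 12 to 24 lower for the interaction, 5 to 10 higher for PF-06873600 in A549 and 0 to 1 higher for the difference between lines. Where an arm kept 1 library, it was assumed to vary like the other groups.

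Same-numbered libraries did not deviate together (correlations from -0.131 to 0.0652), so the numbers only name libraries. With the replicate block the higher and lower members were 17 and 5 for indisulam alone, 10 and 25 for indisulam added to palbociclib, 0 and 17 for the interaction, 6 and 18 for PF-06873600 in A549 and 0 and 50 in SUM159. A crossed pairing of the palbociclib and untreated libraries, chosen after seeing the data, gave 2 higher and 9 lower members. Except for the values that follow from fewer samples, the cause was not tested.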

Other observations

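Splicing genes outside the core set were counted list by list. Of 14 SR proteins, which promote exon inclusion, 2 rose and 2 fell with indisulam alone and 1 rose and 7 fell when it was added to palbociclib. SRSF12 was highest in both, at 1.16 ± 0.25 and 1.47 ± 0.21, and TRA2B was lowest in the second, at -0.78 ± 0.056. In SUM159 with PF-06873600, 12 of 13 tested SR genes fell, SRSF2 most at -1.72 ± 0.056. Of 20 further hnRNP genes 6 rose and 3 fell with indisulam alone, with PTBP2, the neuronal relative of PTBP1, at 0.96 ± 0.091, and 3 rose and 11 fell when it was added to palbociclib. The LSm family includes the proteins of the ring on U6. Of 8 LSm genes 0 rose and 1 fell with indisulam alone. When indisulam was added to palbociclib 1 rose and 6 fell, LSM5 lowest at -0.97 ± 0.082.

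The exon junction complex marks joined exons, and of its 9 listed genes 2 rose and 2 fell with indisulam alone, PNN at 0.54 ± 0.17 and MAGOH at -0.51 ± 0.11. Of 10 minor spliceosome genes 1 rose and 4 fell, RNPC3 at 0.88 ± 0.14 and SNRNP48 at -0.51 ± 0.099. Of 14 genes for snRNP assembly 8 rose and 3 fell with PF-06873600 in A549, and 1 rose and 13 fell in SUM159. GEMIN5, which recognises snRNAs for Sm ring loading, had 0.99 ± 0.081 in A549 and -1.48 ± 0.062 in SUM159, and the difference between lines was -2.47 ± 0.11 (adjusted p = 7.49e-13, edgeR's quasi-likelihood test). Of 11 further U2-associated genes 4 rose and 1 fell with indisulam alone, against 28% and 17.5% of all genes. Of 15 further U5 and tri-snRNP genes 5 rose and 3 fell. Of 23 further PRPF19 complex and activated spliceosome genes 2 rose and 4 fell. Of 6 genes for the indisulam target and its ligase 3 rose and 0 fell, RBM39 highest.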
